A study of Mus musculus with 14 samples.

Results

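The genes described here are the collagens of the lactating mouse mammary gland, chosen as every listed gene whose symbol has the form of *Col*, a number, the letter a and a second number. The rule found 44 collagen genes among 20515 genes with a usable symbol. Total RNA-seq was made from mammary tissue on day 10 of lactation from 2 mice of 1 genotype, WT/wTbrg4, called replicate 1 and replicate 2. These mice carried 1 wt allele and 1 Wap-Tbrg4 allele, in which the enhancers, the promoter and the start of the milk protein gene *Wap* were joined to the neighboring gene *Tbrg4*. They were derived from C57BL/6 zygotes by CRISPR-Cas9 deletion, and their age and litter are not given in the sources used here. The values are FPKM, fragments per kilobase of gene after a scaling of each library, of the exons and of the introns of each gene. The total used in that scaling is not given in the sources used here. The mice share their genotype, so no difference between genotypes was measured and no test was made. The depth of the libraries is unknown, since the values come without read counts.

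Collagens are extracellular proteins whose chains wind around each other as triple helices, and each chain is encoded by a gene of its own. Fibrillar collagens form the fibers of connective tissue, collagen IV forms the network of basement membranes beneath epithelium, endothelium, muscle and fat cells, and other collagens link, coat or anchor these structures. In the mammary gland fibrillar collagens are made mainly by stromal fibroblasts and lie around ducts and alveoli, while the secretory and myoepithelial cells rest on a basement membrane that contains collagen IV.

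Of the 44 collagen genes, 16 reached an average of 1 exon FPKM or more, compared with 9845 of all 20515 genes (48%). All 16 were also at or above 1 in each mouse. They were 6 of 11 fibrillar collagens, 3 of 6 basement membrane collagens, 3 of 6 beaded filament collagens, 2 of 9 fibril-associated collagens and both multiplexins. None of the transmembrane, short-chain network, anchoring fibril or remaining collagens reached this level. The lowest of the 16 was *Col4a5*, with a mean of 2 FPKM, and the highest below the limit was *Col4a6*, with a mean of 0.95 FPKM. Of the 28 genes under 1, 8 were listed at 0 in both mice. A value listed at 0 need not be an absence of RNA, since *Gapdh*, a gene used by every cell, was listed at 0.1 and 0.3 FPKM while *Actb* had 502.1 and 404.8 FPKM.

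The summed exon FPKM of the collagen genes was 290.2 in replicate 1 and 151.4 in replicate 2 (mean 220.8 ± 98.1, SD, n = 2). The sum was therefore higher in replicate 1, by 1.92-fold. It made up 0.0340% of all exon FPKM in replicate 1 and 0.00847% in replicate 2, where all exon FPKM summed to 852961 and 1.78812e+06. The 10 genes with the highest mean, most of them milk protein genes such as *Csn1s2a*, *Csn2* and *Wap*, held 79.5% and 90.6% of these totals. Without those 10 genes the collagens were 0.166% and 0.0898% of the remaining sum, so replicate 1 was higher on each of these scales.

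**Figure D1:**
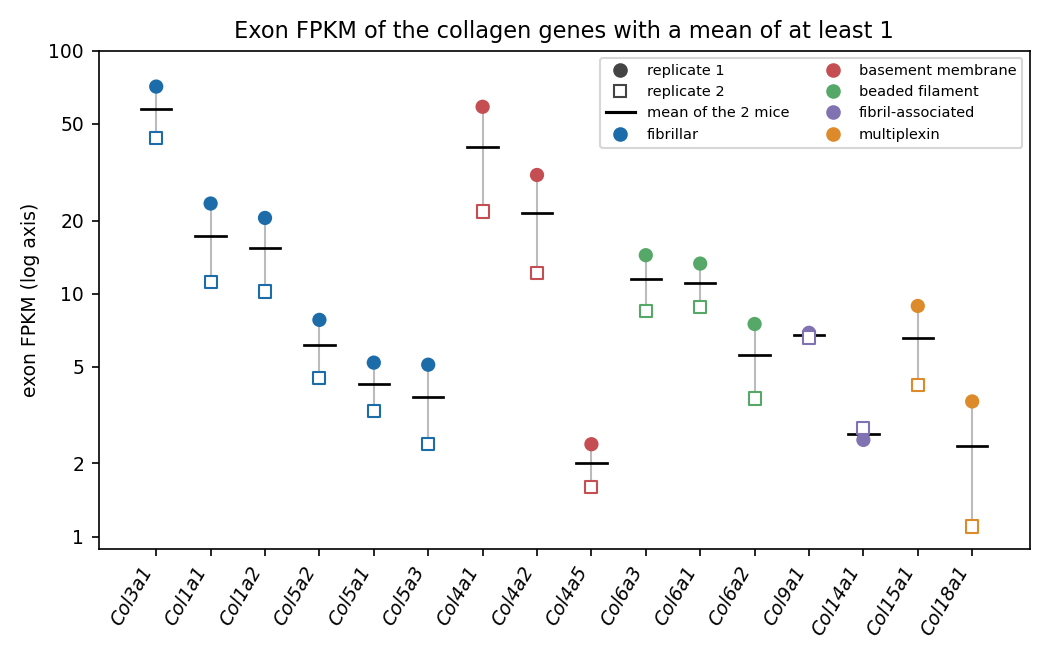
Exon FPKM (log axis) of the 16 collagen genes with a mean of at least 1, by class, in replicate 1 (filled circles) and replicate 2 (open squares), with the mean as a black bar. *Col14a1* was the gene with the higher value in replicate 2, and *Col9a1* had nearly equal values.

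Fibrillar collagens held the largest share of the collagen sum. Their 11 genes summed to 133.9 FPKM in replicate 1 and 75.5 FPKM in replicate 2, which was 46.1% and 49.9% of all collagen FPKM (mean 48.0% ± 2.64, SD, n = 2). The shares lay close together although the sums did not.

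*Col3a1*, whose product forms homotrimers in the thin, compliant fibrils of soft tissue, was the most abundant collagen gene. It had 71.2 FPKM in replicate 1 and 43.6 FPKM in replicate 2 and ranked 402 among all genes by its mean. The chains of collagen I, the main fiber protein of connective tissue, stood lower. *Col1a1* had 23.5 and 11.2 FPKM, and *Col1a2* had 20.5 and 10.2 FPKM. The ratio of *Col1a1* to *Col1a2*, whose products usually assemble as a heterotrimer with more of the first chain than of the second, was 1.15 in replicate 1 and 1.10 in replicate 2 (mean 1.12 ± 0.0342, SD, n = 2). The ratio of *Col3a1* to *Col1a1* was 3.03 and 3.89 (3.46 ± 0.610, SD, n = 2), so the type III chain exceeded the type I chain in each mouse.

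The sequences upstream of *Col3a1* and *Col1a2* are shown because they differ in base composition. Any relation of this composition to the levels of the genes was not tested. Both sequences come from the RefSeq promoter table of GRCm38.p6, which matched 35 of the 44 genes but had no window for *Col1a1*. They end at the base before the annotated start site on the plus strand. The window of *Col3a1* is chr1:45311288-45311537 and that of *Col1a2* is chr6:4505368-4505617, each 250 bases long. Capitals mark matches on either strand to 3 motifs common in promoters, CCAAT (the letters of the CCAAT box), TATAAA (a form of the TATA box) and GGGCGG (the GC box), and the matches shown do not overlap.
*Col3a1*: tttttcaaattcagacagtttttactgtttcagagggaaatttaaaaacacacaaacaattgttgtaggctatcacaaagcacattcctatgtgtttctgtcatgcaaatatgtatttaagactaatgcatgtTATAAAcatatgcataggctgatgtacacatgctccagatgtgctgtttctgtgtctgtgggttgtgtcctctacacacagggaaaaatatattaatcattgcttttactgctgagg
*Col1a2*: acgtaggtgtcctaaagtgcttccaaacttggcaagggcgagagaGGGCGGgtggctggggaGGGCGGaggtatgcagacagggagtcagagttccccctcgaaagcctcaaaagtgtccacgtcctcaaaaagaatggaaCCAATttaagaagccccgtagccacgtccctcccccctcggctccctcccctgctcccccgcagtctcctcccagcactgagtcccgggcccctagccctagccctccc

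The *Col1a2* window had a GC content of 62% and held CCAAT 109 bases upstream of the start site and GGGCGG at 205 and 188 bases upstream. The *Col3a1* window had a GC content of 35.2% and held TATAAA 117 bases upstream. Over all 32851 promoter windows, cut to the same 250 bases, 33.8% held CCAAT, 12.4% held TATAAA and 32.7% held GGGCGG on either strand. Among the 38 windows of collagen genes, 13 held CCAAT, 5 held TATAAA and 22 held GGGCGG. A match describes these letters and does not show that a factor was bound.

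Collagen V chains co-assemble with collagen I and limit the diameter of its fibrils. *Col5a2* had 7.8 and 4.5 FPKM, *Col5a1* 5.2 and 3.3 FPKM, and *Col5a3* 5.1 and 2.4 FPKM. The ratio of *Col5a1* to *Col5a2* was 0.667 and 0.733 (0.70 ± 0.0471, SD, n = 2). The other fibrillar collagens were near or at 0, with *Col11a1* at 0.2 FPKM in both mice, *Col27a1* at 0.3 and 0.1 FPKM, and *Col11a2* at 0.1 and 0 FPKM. *Col2a1*, the main collagen of cartilage, and *Col24a1* were listed at 0 in both mice.

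The genes of the fibrillar class are rich in exons of 1 length, a trait that the symbol rule did not use. In curated RefSeq transcripts, 305 of their 648 exons (47.1%) were 54 bp long, a length that encodes whole repeats of the helix. Each fibrillar gene had between 21 and 33 such exons. The fibril-associated class shared the trait in part, with 109 exons of this length (24.9%) and between 4 and 28 per gene, 14 of them in *Col9a1*. Among the 299 exons of the basement membrane class 12 (4.01%) had this length, and over all genes 0.565% did. *Col3a1* and *Col5a2* are neighbors on chromosome 1, on opposite strands with 24624 bp between their ends.

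Basement membrane collagens were the class with the second highest sum, 93.7 FPKM in replicate 1 and 36.5 FPKM in replicate 2. Their share of the collagen sum was 32.3% and 24.1% (28.2% ± 5.78, SD, n = 2). With *Col7a1*, *Col15a1* and *Col18a1*, which lie at or next to basement membranes, the share was 36.8% and 27.7%.

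Nearly all of this came from *Col4a1* and *Col4a2*, whose products form the ubiquitous heterotrimer of collagen IV. *Col4a1* had 58.8 and 21.8 FPKM, and *Col4a2* had 30.8 and 12.2 FPKM. In each mouse *Col4a1* stood between *Col3a1* and *Col4a2*, and both *Col4a1* and *Col4a2* stood above the genes of collagen I. The ratio of *Col4a1* to *Col4a2* was 1.91 in replicate 1 and 1.79 in replicate 2 (1.85 ± 0.0864, SD, n = 2), which kept these partners in nearly the same proportion while their levels differed by 2.70-fold and 2.52-fold between the mice.

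The pair lies head to head on chromosome 8. The curated transcripts of *Col4a1* run from 11312826 down to 11198423 on the minus strand and those of *Col4a2* from 11312805 to 11449287 on the plus strand, so that their first exons overlap by 22 bp on GRCm38. The bases upstream of one gene thus lie inside the other, and the window of 250 bases upstream had a GC content of 74.4% for *Col4a1* and 73.6% for *Col4a2*, with 1 match to CCAAT in each, 0 and 2 matches to GGGCGG, and 0 to TATAAA in either. The other chains are arranged alike. The start sites of *Col4a3* and *Col4a4* lie 72 bp apart on chromosome 1, and those of *Col4a5* and *Col4a6* lie 1343 bp apart on the X chromosome.

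The chains of these other pairs build networks of more specialized membranes and were low. *Col4a5* had 2.4 and 1.6 FPKM and *Col4a6* had 1.3 and 0.6 FPKM. *Col4a3* had 0.2 FPKM in both mice and *Col4a4* had 0.2 and 0.1 FPKM, so no ratio is given for chains this close to the lowest value that can be listed, 0.1.

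Collagen VI forms beaded filaments that connect cells with the surrounding matrix. Its class summed to 36.2 and 21.7 FPKM, or 12.5% and 14.3% of the collagen sum (13.4% ± 1.31, SD, n = 2). *Col6a3* had 14.4 and 8.5 FPKM, *Col6a1* 13.3 and 8.8 FPKM, and *Col6a2* 7.5 and 3.7 FPKM. These are the chains of the classical heterotrimer. *Col6a3* and *Col6a1* were nearly equal, with ratios of 1.08 and 0.966 (1.02 ± 0.0826, SD, n = 2), and *Col6a1* exceeded *Col6a2* by 1.77-fold and 2.38-fold (2.08 ± 0.428, SD, n = 2). The alternative chains encoded in a cluster on chromosome 9 were low, with *Col6a6* at 0.7 and 0.5 FPKM, *Col6a4* at 0.2 and 0.1 FPKM, and *Col6a5* at 0.1 FPKM in both mice.

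**Figure D2:**
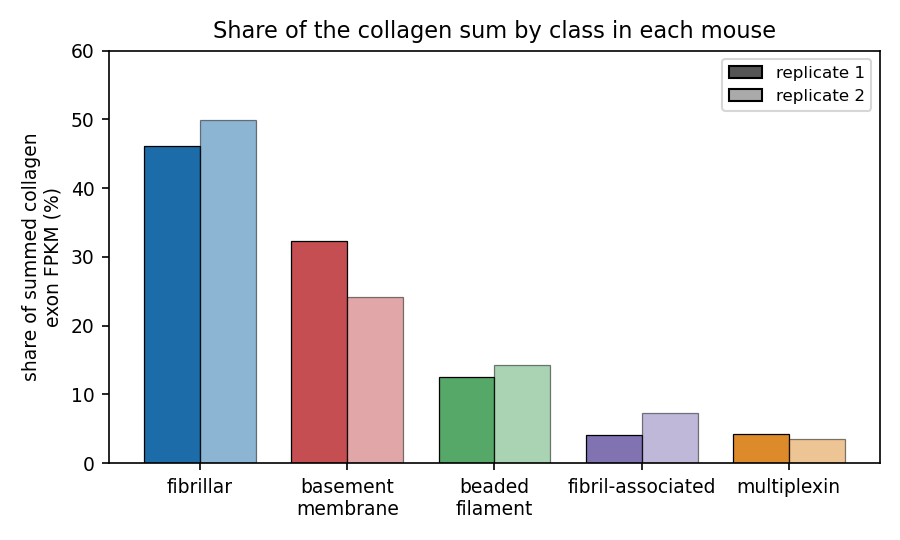
Share of the summed collagen exon FPKM (%) held by each of 5 classes in replicate 1 (darker bars) and replicate 2 (lighter bars). Fibrillar collagens held 46.1% and 49.9%, and basement membrane collagens 32.3% and 24.1%.

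Fibril-associated collagens bind to the surface of fibrils through interrupted helices. Their 9 genes summed to 12.1 and 11.1 FPKM, the smallest difference between the mice among the 5 classes with a member at or above 1. *Col9a1* had 6.9 and 6.6 FPKM and *Col14a1*, whose product coats collagen I fibrils, had 2.5 and 2.8 FPKM. These were the 2 genes of the class at or above 1, and *Col12a1*, with 0.6 and 0.7 FPKM, also had a slightly higher value in replicate 2. *Col16a1* had 1 and 0.3 FPKM, and *Col19a1* and *Col22a1* were listed at 0.

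*Col9a1* is best known from cartilage, where its product joins those of *Col9a2* and *Col9a3* on fibrils of collagen II. Those partner chains were at 0.2 and 0.1 FPKM and at 0.3 and 0.3 FPKM. The cartilage markers *Acan*, *Matn1* and *Hapln1* were listed at 0 in both mice, and *Comp* had 0.2 and 0 FPKM. *Col9a1* thus stood well above its partner chains, *Col2a1* and these cartilage markers, which were at or near 0. No other annotated gene overlaps *Col9a1*. RefSeq gives it 2 promoter windows, and the values, which are summed over a gene, do not show which start site was used.

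Multiplexins, whose C-terminal fragments are known as endostatin and a relative of it, lie in vascular and epithelial basement membrane zones. *Col15a1* had 8.9 and 4.2 FPKM and *Col18a1* had 3.6 and 1.1 FPKM. The ratio of replicate 1 to replicate 2 for *Col18a1*, 3.27, was the highest of the 16 genes. *Col7a1*, the anchoring fibril chain that fastens basement membranes to the stroma, had 0.6 and 0.1 FPKM.

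The remaining classes were near 0. The 4 transmembrane collagens summed to 0.4 and 0.3 FPKM, with *Col17a1*, a hemidesmosome component, listed at 0 in both mice. The short-chain network collagens summed to 0.4 FPKM in both mice, of which *Col8a1*, known from vessel walls, gave 0.3 and 0.4 FPKM, *Col8a2* 0.1 and 0 FPKM, and *Col10a1* was listed at 0. *Col28a1* had 0.4 and 0.5 FPKM and *Col26a1* was listed at 0.

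The mice were then set side by side gene by gene, as the log2 ratio of FPKM + 1 of replicate 2 to replicate 1 over genes at or above 1 FPKM on average. On this scale the ratios of low genes are understated. Of the 16 collagen genes, 4 were lower in replicate 2 by more than 2-fold and 0 were higher, compared with 4.82% lower and 1.08% higher among 9845 genes. The 4 were *Col4a1* (-1.39), *Col4a2* (-1.27), *Col18a1* (-1.13) and *Col1a1* (-1.01). In all, 15 of the 16 had a ratio below 0, compared with 55.4% of all genes, and the exception was *Col14a1* (0.12). The median was -0.77 for the collagen genes and -0.08 for all genes. Rescaling each mouse to an equal exon sum put all 16 below 0 and moved the median of all genes to -0.92. Centering on the median of all genes left 14 below 0, with *Col9a1* then above it. In bulk tissue, fewer cells of a type and less RNA per cell cannot be told apart.

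Exon GC content moved with this difference. Over all 9725 genes with a mean of at least 1 and a known GC content, the log2 ratio was lower where GC content was higher (Spearman's rho = -0.66 across genes, which are not independent replicates), and over the 16 collagen genes rho was -0.67. The collagen genes are rich in GC, with a median of 56.5% and a range of 49.7% (*Col5a2*) to 61.6% (*Col5a3*), compared with a median of 50.2% for genes with a mean of at least 1. Of the 16, 14 lay above that median.

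After a smooth fit of the ratio on GC content was subtracted, 0 of the 16 collagen genes were more than 2-fold lower and 0 were more than 2-fold higher, compared with 0.781% and 1.13% of all genes. Their median was -0.35, and 12 of the 16 lay below the fit, compared with 49.9% of all genes. *Col4a1* kept the lowest value (-0.81), followed by *Col5a2* (-0.64), *Col1a2* (-0.53), *Col3a1* (-0.49) and *Col4a2* (-0.49). *Col14a1* (0.16), *Col9a1* (0.13), *Col5a1* (0.08) and *Col5a3* (0.00) were at or above it. The part of GC content in the difference of any single gene was not tested.

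**Figure D3:**
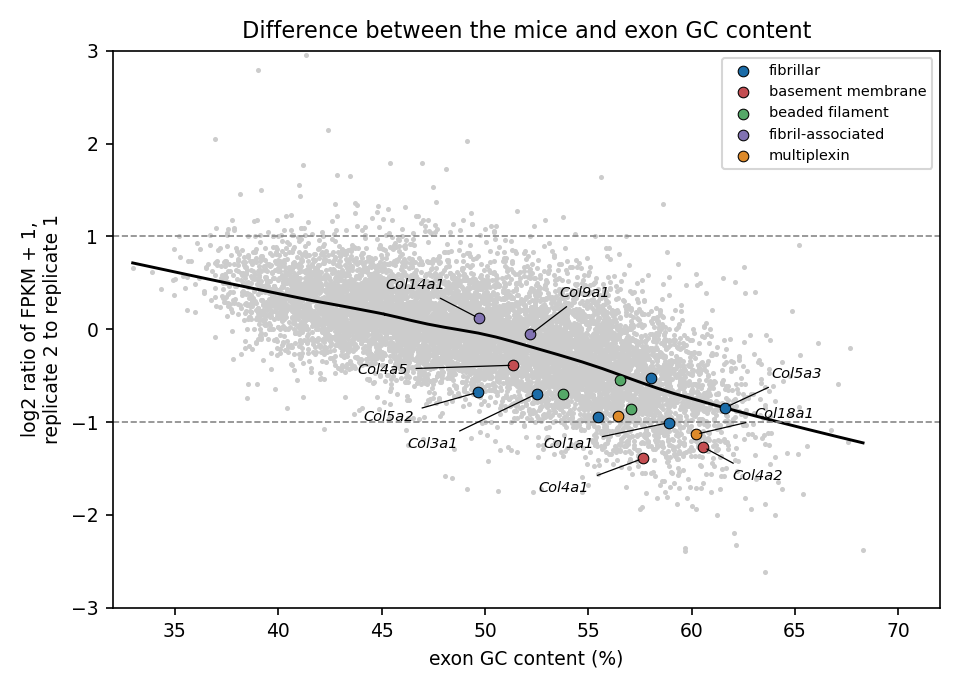
Log2 ratio of exon FPKM + 1, replicate 2 to replicate 1, against exon GC content (%) for 9725 genes (gray), with the 16 collagen genes colored by class, the lowess fit as a black line and 2-fold as dashed lines; 1 gene lies outside the axes. Most collagen genes lie at high GC content, and 12 of 16 lie below the fit.

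By class, the median ratio was -0.77 for the 6 fibrillar genes, -1.27 for the 3 basement membrane genes, -0.70 for the 3 beaded filament genes, -1.03 for the 2 multiplexins and 0.03 for the 2 fibril-associated genes. After the fit on GC content these medians were -0.41, -0.49, -0.32, -0.41 and 0.15. Differences between classes rest on few genes and were not tested.

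Intron FPKM measures RNA that still contains introns, mainly unspliced precursor, and was low for every collagen gene. It was at most 0.5 FPKM, and because values are listed with 1 decimal, a difference of 0.1 is a single step. Of the 16 genes at or above 1 in exon FPKM, 13 had intron FPKM above 0 in both mice, compared with 92.8% of all genes at that exon level. *Col4a1* had 0.5 and 0.3 intron FPKM, *Col4a2* 0.4 and 0.2, *Col3a1* 0.3 and 0.5, *Col1a2* 0.3 and 0.4, and *Col9a1* 0.3 and 0.5. *Col4a5* and *Col14a1*, with 207314 bp and 206597 bp of introns, were listed at 0 in both mice, and *Col18a1* had 0.1 and 0 intron FPKM.

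Intron FPKM was higher in replicate 1 for 8 of the 16 genes, equal for 4 and higher in replicate 2 for 4, compared with 33.1% higher in replicate 1 and 35.7% higher in replicate 2 among all genes at that exon level. The 4 higher in replicate 2 were *Col3a1*, *Col1a2*, *Col5a2* and *Col9a1*. Of the 4 equal genes, *Col4a5* and *Col14a1* were at 0. The sum over all collagen genes was 4.2 and 3.5 intron FPKM, while the sum over all genes was 9092.5 and 10570.1.

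The log2 ratio of intron to exon FPKM, with 0.1 added to both and averaged over the mice, had a median of -4.70 over the 16 collagen genes and -3.55 over all genes at or above 1. It was lowest for *Col3a1* (-6.83), *Col4a1* (-6.20), *Col1a1* (-6.06) and *Col4a2* (-5.65), the genes with the highest exon FPKM. Intron FPKM varied little among the collagen genes, so exon FPKM largely sets this order by construction. The ratio was -3.81 for *Col9a1* and -3.59 for *Col5a3*. The introns of the 16 genes summed to a median of 85410.5 bp per gene, compared with 19863 bp over all genes with a mean of at least 1.

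**Figure D4:**
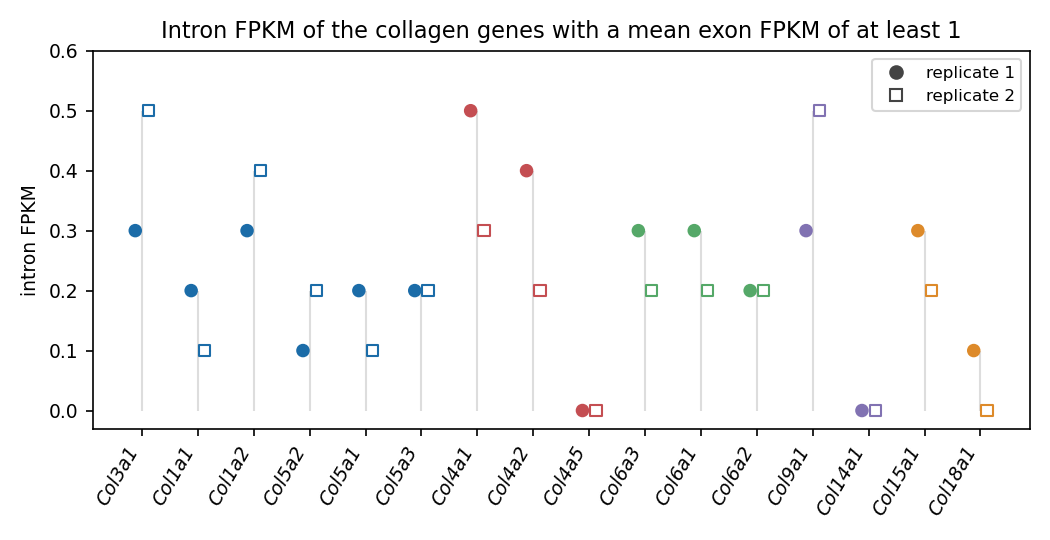
Intron FPKM of the 16 collagen genes at or above 1 in mean exon FPKM, in replicate 1 (filled circles) and replicate 2 (open squares), in steps of 0.1. *Col4a1* reached 0.5 in replicate 1, *Col3a1* and *Col9a1* reached 0.5 in replicate 2, and *Col4a5* and *Col14a1* were at 0.

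Among the 28 genes under 1 in exon FPKM, *Col20a1* had 0.3 and 0.2 intron FPKM beside 0.6 and 0.3 exon FPKM. A predicted noncoding gene on the opposite strand, *Gm30797*, shares 424 bp with its exons and has 2539 bp of its own exons inside its introns. Whether reads were assigned by strand is not given in the sources used here, so reads of both genes cannot be told apart. Overlaps of this kind also touch *Col15a1*, *Col4a1*, *Col4a2*, *Col5a1* and *Col14a1* among the 16 genes.

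Genes that act on collagens were compared between the mice in the same way, and the counts past 2-fold are read beside the 4.82% lower and 1.08% higher among all genes. After the fit on GC content, 0 genes of the 5 lists of related genes were past 2-fold in either direction. That count is near the shares among all genes after the fit, 0.781% lower and 1.13% higher. Of 34 listed genes for collagen synthesis and fibril processing, 26 had a mean of at least 1, and of these 1, the collagen chaperone gene *Fkbp10* (3.2 and 0.7 FPKM), was lower in replicate 2 by more than 2-fold and 0 were higher, a share near that of all genes. *Fkbp10* was at -1.30 before and -0.74 after the fit on GC content. The median log2 ratio of the list was -0.37, and -0.05 after the fit on GC content. The most abundant was *P4hb*, a subunit of prolyl 4-hydroxylase and a general disulfide isomerase, with 534 and 415.2 FPKM. *Ppib*, a proline isomerase, had 166.4 and 124.4 FPKM, *Sparc*, which binds collagen outside the cell, 127.9 and 138.5 FPKM, and *Mia3*, which loads procollagen for export, 108.2 and 87.2 FPKM. The levels of these 4 genes were above that of any collagen gene. *Serpinh1*, named here after its values were seen because it is the chaperone specific to collagen, had 20.8 and 11.5 FPKM.

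Of 12 collagen receptor genes 7 were at or above 1, with a median log2 ratio of 0.18, and 0.09 after the fit on GC content. *Itgb1*, the shared beta subunit of collagen-binding integrins, had 45.8 and 55.4 FPKM, and *Adgrg1*, a receptor for collagen III, had 24.1 and 22.9 FPKM. *Ddr1*, a receptor tyrosine kinase of epithelial cells that binds collagen, was the 1 gene past 2-fold, with 22.1 and 7.9 FPKM. Its log2 ratio was -1.38, and -0.60 after the fit. *Itga1*, the alpha subunit of a collagen-binding integrin, had 3.7 and 4.7 FPKM.

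Of 17 genes for proteases that cut collagen and their inhibitors 9 were at or above 1, and 0 were past 2-fold in either direction, with a median of 0.11, and 0.13 after the fit on GC content. The inhibitors *Timp2* (41.9 and 38.6 FPKM), *Timp3* (24.1 and 36.5 FPKM) and *Timp4* (10.3 and 11.2 FPKM) stood above the gelatinase *Mmp2* (10.7 and 7.8 FPKM) on the mean. *Timp1* was listed at 0.

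Proteins that share the basement membrane with collagen IV had a median of -0.23 over the 17 of 20 genes at or above 1, of which 3 were lower in replicate 2 by more than 2-fold and 0 were higher. The fit on GC content turned the median to 0.07 and ended all 3 calls, and the number with a value below 0 went from 14 to 6. The 3 were *Hspg2* (perlecan, -1.19), *Lamb2* (-1.10) and *Lama5* (-1.05), the last 2 being laminin chains, with -0.39, -0.43 and -0.31 after the fit. The most abundant, *Dag1*, a laminin receptor, had 20.2 and 20.4 FPKM, and *Nid1*, which bridges laminin and collagen IV, had 15 and 17.6 FPKM. The laminin chains *Lamb1* and *Lamc1* had 18.5 and 14.1 FPKM and 15 and 12.5 FPKM. In replicate 1 *Col4a1* and *Col4a2* exceeded each of these partners, and in replicate 2 *Col4a2* was below *Dag1*, *Nid1*, *Lamb1* and *Lamc1*.

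Matrix proteins that bind fibrils had a median ratio near 0. Of 22 genes 21 were at or above 1, with a median log2 ratio of 0.05, and -0.01 after the fit on GC content. The 1 gene lower by more than 2-fold was *Tnxb*, at -1.04 before and -0.25 after the fit. *Dcn*, a proteoglycan that regulates fibril growth, had 42.9 and 78.4 FPKM, *Postn*, which promotes cross-linking, 34 and 41.1 FPKM, *Tnc*, an adhesion-modulating glycoprotein, 24.2 and 16.7 FPKM, and *Dpt*, a binding partner of *Dcn* protein, 16.5 and 16.4 FPKM. *Dcn* thus lay below *Col3a1* in replicate 1 and above it in replicate 2.

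**Figure D5:**
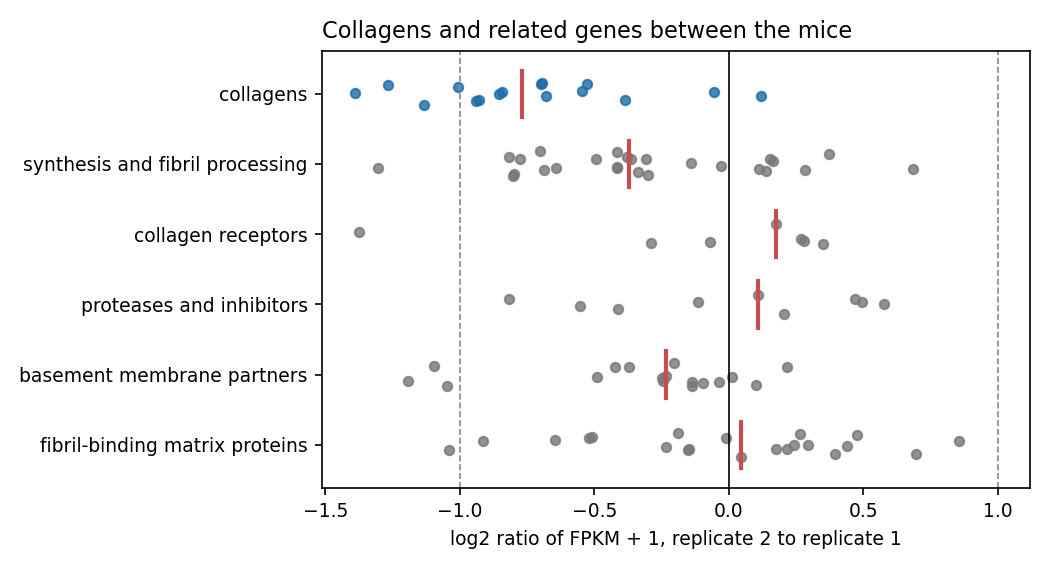
Log2 ratio of exon FPKM + 1, replicate 2 to replicate 1, for the collagen genes and 5 lists of related genes with a mean of at least 1, each point a gene and the red bar the median, with 2-fold as dashed lines. The median was -0.77 for the collagens, -0.37 for synthesis, 0.18 for receptors, 0.11 for proteases and inhibitors, -0.23 for basement membrane partners and 0.05 for fibril-binding proteins.

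Markers of the cell types in the tissue did not all move with the collagen genes. The 6 fibroblast markers summed to 86.1 FPKM in replicate 1 and 128.9 FPKM in replicate 2, led by *Dcn*, and 2 of the 6 had a ratio below 0, *Dpt* and *Pi16* (4.9 and 1.1 FPKM). Most of the higher sum came from *Dcn* (42.9 and 78.4 FPKM), and the median log2 ratio of the list was 0.29, and 0.12 after the fit on GC content. The 6 markers of secretory epithelium summed to 290305 and 725253 FPKM, led by *Csn2* and *Wap*, and 3 of the 6 had a ratio below 0, with a median of 0.05. The keratin genes *Krt18* (145 and 57.6 FPKM) and *Krt8* (31.4 and 14.6 FPKM) were lower in replicate 2 by more than 2-fold, and were at -0.84 and -0.53 after the fit on GC content. *Csn2*, a casein gene, was higher in replicate 2 by more than 2-fold, at 2.15 before and 1.87 after the fit. The 5 adipocyte markers, led by *Fabp4*, summed to 634.1 and 719.5 FPKM, with 2 of the 5 below 0. Their median log2 ratio was 0.08, and -0.06 after the fit on GC content, with 3 of the 5 below the fit. Of these markers *Plin1* (7.8 and 2.6 FPKM) was lower in replicate 2 by more than 2-fold, at -1.29 before and -0.46 after the fit.

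Vascular markers went in both directions. The 5 endothelial markers, led by *Cdh5* (17.3 and 17.4 FPKM), summed to 51.1 and 45 FPKM, with a median log2 ratio of -0.16, and 0.20 after the fit on GC content. The 4 mural cell markers summed to 40.5 and 46.6 FPKM, and the higher sum in replicate 2 came from *Rgs5* (22.8 and 37.8 FPKM). The other 3, *Notch3* (-1.25), *Cspg4* (-0.50) and *Pdgfrb* (-0.48), had ratios below 0, and the median of the list was -0.49, and 0.05 after the fit.

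Myoepithelial, skeletal muscle and Schwann cell markers had lower sums in replicate 2, as the collagens did, and medians below 0 also after the fit on GC content (-0.40, -0.61 and -0.35). The 5 myoepithelial markers, led by *Myh11*, summed to 112.6 and 71.3 FPKM, with *Acta2* listed at 0 in both mice. Of the 4 at or above 1, 3 had a ratio below 0, and *Oxtr* was higher in replicate 2 (18.9 and 23.6 FPKM). The myoepithelial keratin gene *Krt14* (17.9 and 5.4 FPKM) was at -1.56, and still past 2-fold at -1.02 after the fit. The 5 skeletal muscle markers, led by *Acta1*, summed to 25.2 and 9.7 FPKM, and each of the 4 at or above 1 had a ratio below 0. Of these the myosin gene *Myh4* (6.1 and 2 FPKM) was at -1.24, and still past 2-fold at -1.02 after the fit. The 3 Schwann cell markers, led by *Sox10*, which mammary epithelium also expresses, summed to 43.4 and 22.9 FPKM. The part of these cell types in the collagen values was not tested. The 3 skin epidermis markers, led by *Krt10* and with *Krt1* listed at 0, summed to 0.8 FPKM in both mice, and the 4 cartilage markers to 0.2 and 0 FPKM.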

How the data were processed

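Total RNA from the mammary glands of 2 WT/wTbrg4 mice was sequenced by the authors as stranded total RNA libraries. Per the labels and the methods of the study, reads were mapped to mm10 with STAR, counted on collapsed exons and on introns with HTSeq and turned into FPKM with DESeq2, and the authors deposited the FPKM with 1 decimal. The treatment of reads with several positions, the use of strand and the scaling total are not given in the sources used here. Read counts are not given, so depth is unknown and precision rests on the spread between the mice.

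Of 20550 genes, 35 without a usable symbol were left out. Exon and intron lengths, GC content and positions came from curated RefSeq transcripts on GRCm38 and covered 98.8% of the genes whose exon FPKM was on average at least 1. Ratios used FPKM + 1, or 0.1 added for introns, and called means past 2-fold. The GC fit was a lowess over 30% of the genes. It was tested on simulated data with a straight slope on GC content and shifted genes drawn at random. A shift shared by genes rich in GC was not simulated, so how the fit treats one was not tested. Collagen genes with a mean of at least 1 were named, and of each related list the 4 highest and, where 5 or fewer passed 2-fold, some of those, chosen after their values were seen. The members and lists were chosen with earlier results of these data known. Other pseudocounts, filters, scalings and averages were tried. The 12 ChIP-seq samples were not analysed here. A further marker list is not reported here. Python 3.11.15 with numpy 2.4.6, pandas 2.3.3, statsmodels 0.14.6 and matplotlib 3.10.9 was used.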

Additional observations from a re-analysis of the deposited data

How the results depend on the processing

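No paired analysis was possible because the RNA-seq samples form a single group. For class shares and ratios of partner chains, another average or leaving out a mouse gives a value within the range of the mice by construction and says nothing of stability. The basement membrane share was 32.2% with the wider class. Over all 44 collagen genes, the number with intron FPKM above 0 in both mice, 14, stayed within 1.5-fold. The number of collagen genes at or above 1, 16, did so under the alternatives planned for it. Rescaling to 1000000 without the 10 highest genes, planned for the collagen sum, took it from 220.8 FPKM on average to 1278. The same rescaling, added for the number at or above 1 after seeing the data, raised the 16 to 29.

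The median log2 ratio of the collagen genes was below 0 under each of the 10 alternatives. From -0.77 it moved to -0.89 with a pseudocount of 0.1, -0.14 with no filter (44 genes), -1.65 after rescaling to 1000000, and -0.35 after the GC fit. The number past 2-fold, 4, became 6 with a pseudocount of 0.1, 14 after rescaling and 0 after the GC fit. Centering on the median of all genes left 3, with *Col1a1* then at -0.93. A minimum of 5 FPKM also left 3. Alternatives chosen after seeing the data were a GC fit over 50% of the genes, with a median of -0.36 and 0 genes past 2-fold, and rescaling without the 10 highest genes, with 7 of 29 genes past 2-fold, 5 of them among the 16. The cause was not tested where a scaling moved these values.

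Of all genes past 2-fold, 81.8% were lower in replicate 2 (475 lower, 106 higher). This was 99.9% after rescaling (4190 and 5), 70.2% after rescaling without the 10 highest genes (1076 and 456), and 40.9% and 39.5% after the GC fits (76 and 110, 73 and 112). With a pseudocount of 0.1, 871 were lower and 221 higher.

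The median log2 intron to exon ratio, -4.70, was -5.20 with a pseudocount of 0.05 and -2.56 with 1, and ranged from -4.88 to -4.23 when either mouse was left out. Among the 16 named genes, the GC fit moved 14 by over 0.1 and the pseudocount of 0.1 moved 7. Rounding to 1 decimal limits intron values and genes near 0, and with 2 mice no difference could be tested.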

Other observations

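Other genes whose proteins contain a collagen-like helix, listed after the data were examined, have symbols outside the collagen rule. Of 32 such genes 14 had a mean exon FPKM of at least 1. *Sftpd*, a collectin known from lung surfactant and also made in glands, had 192.8 and 94.8 FPKM, above every collagen gene in each mouse. *Adipoq*, the adipocyte hormone adiponectin, had 85.3 and 113 FPKM. *C1qa*, *C1qb* and *C1qc*, which encode the chains of the complement protein C1q made mainly by macrophages, had 44.8 and 19.6 FPKM, 27.2 and 14.8 FPKM, and 14.4 and 14.7 FPKM. On the log2 scale *C1qa* (-1.15) and *Sftpd* (-1.02) were lower in replicate 2 by more than 2-fold, and 0 of the 14 were higher by that much, beside 4.82% lower and 1.08% higher among all genes. After the fit on GC content neither was past 2-fold (-0.45 and -0.72). The median of the 14 was -0.13, and 0.03 after the fit.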
